A study of Mus musculus with 32 samples.

Results

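The genes described here are the ligands of the EGF receptor, the receptor itself and an inhibitor that the receptor induces. They are epiregulin (Ereg), amphiregulin (Areg), heparin-binding EGF-like growth factor (Hbegf), transforming growth factor alpha (Tgfa), betacellulin (Btc), epidermal growth factor (Egf), epigen (Epgn), the receptor (Egfr) and the feedback inhibitor Errfi1. They were chosen by name, probes were matched through the RefSeq identifier on the array, and all 9 were found among 45616 named features. Each gene was read from its probe with the highest mean over 32 arrays. The hosts were EP2 wild-type (EP2+/+) or EP2 knockout mice implanted with cells of MCG 101, a methylcholanthrene-induced sarcoma that is passed on by transplantation. EP2 is the prostaglandin E2 receptor encoded by Ptger2. The tumor and the tumor stroma were hybridised separately, each on 1 single-colour array, which gave 8 arrays for each tissue and genotype, 4 labelled female and 4 labelled male. Genotype refers to the host, and the labels name the same implanted tumor cells for all groups. The labels give no age, and p-values measure the spread between these samples.

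The EGF receptor ligands are made as membrane-anchored precursors that ADAM proteases cut free. A bound receptor pairs with a second receptor of the ErbB family, becomes phosphorylated and signals through Ras and ERK. ERK in turn induces genes that damp the signal, among them Errfi1, whose protein binds and blocks the receptor kinase. EP2 raises cAMP, and in several epithelial and cancer cells Areg is known as a gene induced by prostaglandin E2 and by cAMP through a CRE, the sequence TGACGTCA.

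The promoters of Areg and Errfi1 are shown because each holds that whole sequence, and that of Egfr is shown beside them because it holds none. Capitals mark TGACGTCA, the shorter TGACG on either strand, which TGACGTCA contains in both directions, and TATAAA. The sequences are from RefSeq (GRCm38.p6, plus strand) at chr5:91139349-91139648 for Areg, chr4:150854820-150855119 for the second of 2 Errfi1 promoters and chr11:16751953-16752252 for Egfr.
Areg: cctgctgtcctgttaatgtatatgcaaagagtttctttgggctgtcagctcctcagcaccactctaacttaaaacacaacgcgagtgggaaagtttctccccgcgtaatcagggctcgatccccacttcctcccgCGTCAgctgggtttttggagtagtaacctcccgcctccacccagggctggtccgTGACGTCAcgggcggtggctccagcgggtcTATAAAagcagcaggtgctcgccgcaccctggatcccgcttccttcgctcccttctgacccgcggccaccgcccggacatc
Errfi1: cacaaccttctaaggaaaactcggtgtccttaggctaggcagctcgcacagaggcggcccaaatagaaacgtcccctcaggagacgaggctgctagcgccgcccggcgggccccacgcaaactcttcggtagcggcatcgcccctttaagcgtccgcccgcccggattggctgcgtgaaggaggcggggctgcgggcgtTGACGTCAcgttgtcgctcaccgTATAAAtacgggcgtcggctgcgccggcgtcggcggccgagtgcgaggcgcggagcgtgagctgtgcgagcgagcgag
Egfr: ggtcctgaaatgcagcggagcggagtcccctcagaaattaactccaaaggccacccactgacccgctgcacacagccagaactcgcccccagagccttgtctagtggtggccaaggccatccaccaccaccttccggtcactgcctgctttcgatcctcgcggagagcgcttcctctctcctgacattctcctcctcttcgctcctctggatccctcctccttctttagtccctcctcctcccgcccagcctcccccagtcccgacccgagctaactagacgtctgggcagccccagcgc
In Areg TGACGTCA begins at position -61 and TATAAA at position -31 relative to the start, and in Errfi1 they begin at -51 and -28. Of 32851 mouse promoters of this length in the table, 1.79% hold TGACGTCA, 20.8% TGACG and 13.6% TATAAA. Areg holds a further TGACG on the minus strand at -115. The table matched 7 of the 9 genes with 9 promoters. It held none for Ereg or Hbegf, so their promoters were not read. TGACGTCA was in none of those of Egfr, Egf, Tgfa, Btc and Epgn or in the first Errfi1 promoter, while Btc and Epgn held TGACG. The AP-1 sequence TGANTCA, held by 7.81% of promoters, was in none of the 9. A match is a description of the letters in this window. Epgn, Ereg, Areg and Btc are consecutive protein-coding genes on chromosome 5, between Mthfd2l and Parm1.

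Levels are log2 intensities with the 75th percentile of each array set to 0, and differences are differences of these levels. Between 47.8% and 75.2% of probes on an array were well above background. The leading principal component of all arrays (59.8% of the variance) placed wild-type stroma 65 and 82, at -45.6 and -68.4, within the tumor range of -87.4 to -27.8, and every other stroma array at 3.39 or above. On 5 arrays labelled male, wild-type stroma 9, knockout stroma 95 and 99 and knockout tumor 95 and 99, Xist lay above Ddx3y, against the label. The Ptger2 probe was not lower in knockout hosts, with means of -3.17 ± 0.49 (SD, n = 8) against -4.02 ± 0.96 (n = 8) in stroma and -3.91 ± 0.77 (n = 8) against -4.97 ± 0.93 (n = 8) in tumor. Where that probe lies relative to the deletion is not given in the sources used here, so it checks no label. Skeletal muscle markers were well above background on all stroma arrays (12 of 12 in both genotypes), so the stroma pieces held muscle RNA as well. Muscle RNA was not confined to them. In tumor 7 of 12 markers in wild-type and 8 of 12 in knockout hosts were well above background on all 8 arrays. The marker mean ran from -3.31 to 4.87 in wild-type and from -3.86 to 6.29 in knockout tumor, against 1.51 to 9.26 and 6.61 to 8.79 in stroma.

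The tumor and the stroma around it differed in the levels of several of these genes. Ereg, Areg and Hbegf were higher in tumor, Egf and Egfr were higher in stroma, and Errfi1 was high in both and somewhat higher in tumor. Of the 7 genes tested between the tissues, 6 passed, 2 higher in stroma and 4 lower (limma with Benjamini-Hochberg adjustment, adjusted p under 0.05). Over all 27120 genes tested 62.8% passed, 25.7% higher in stroma and 37.1% lower, so the count of 6 lies against a background in which most genes differed. The size of some differences stood out more than their number: Ereg was the 7th lowest and Areg the 43rd lowest difference of 27120. In bulk RNA fewer cells of a type and less RNA per cell cannot be told apart.

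**Figure D1:**
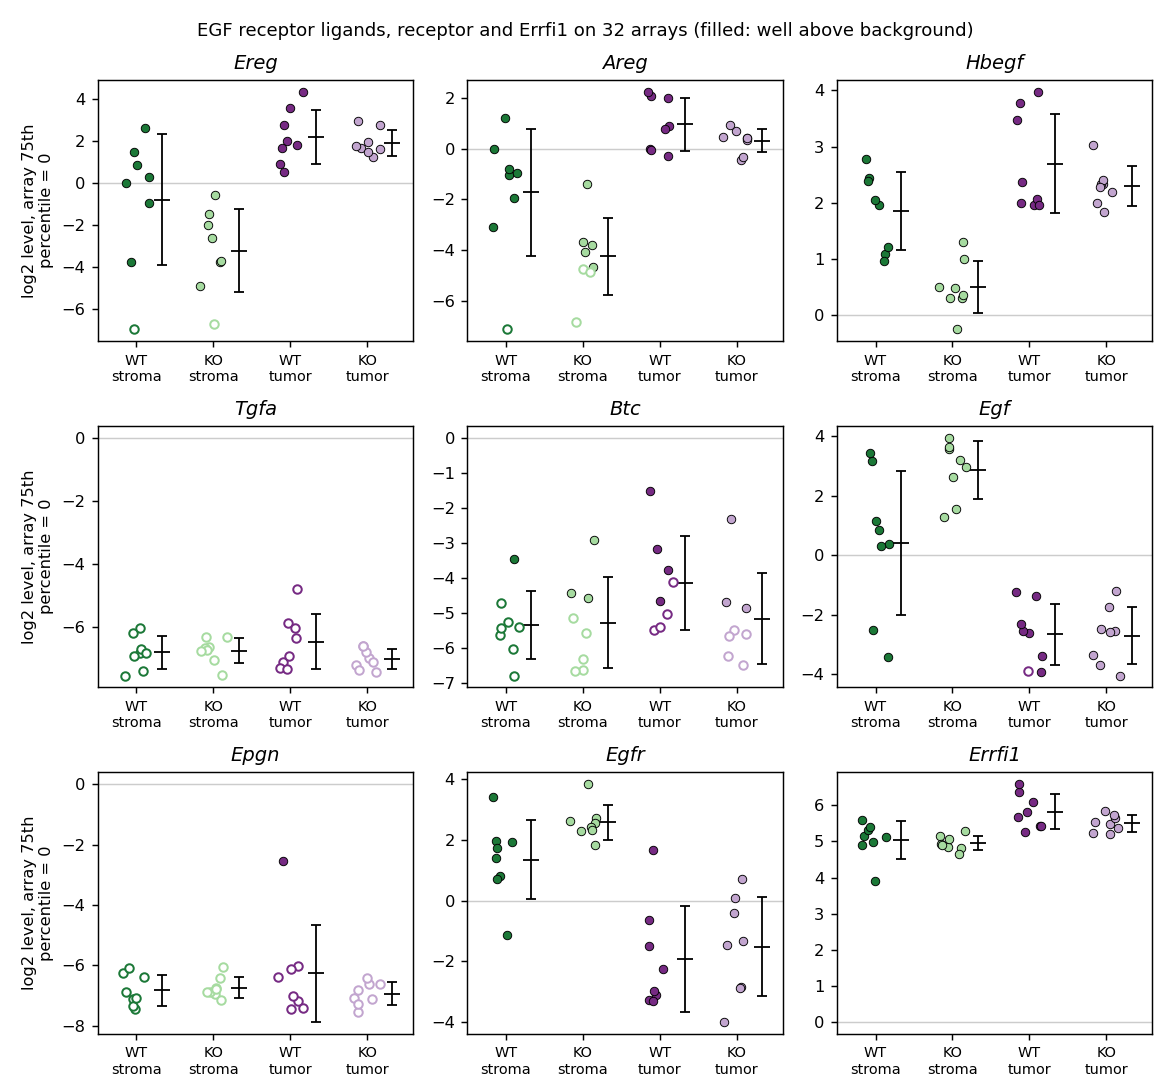
Log2 levels of the 9 genes (vertical axes, array 75th percentile at 0) by group, 1 point per array, filled where the probe was well above background, with mean and SD of 8 arrays beside the points. Ereg, Areg and Hbegf sit higher in tumor, Egf and Egfr higher in stroma, and Tgfa has no filled point.

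Ereg encodes a ligand of EGFR and ErbB4 that most adult tissues make little of. Its level in tumor ran from 0.51 to 4.33 (median 1.89, 8 arrays) in wild-type hosts and from 1.22 to 2.94 (median 1.69) in knockout hosts. In stroma it ran from -6.98 to 2.60 (median 0.13) in wild-type hosts and from -6.74 to -0.61 (median -3.18) in knockout hosts, and it was well above background on 14 of 16 stroma arrays. Every knockout stroma array lay below every tumor array, while 3 wild-type stroma arrays, 1, 65 and 82, reached into the tumor range. The difference, stroma minus tumor, was -4.07 ± 0.66 (SE), or 16.7-fold (limma, adjusted p = 7.08e-06).

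Areg encodes amphiregulin, a ligand of EGFR alone. In tumor it ran from -0.28 to 2.25 (median 0.83) in wild-type and from -0.45 to 0.92 (median 0.42) in knockout hosts. In stroma it ran from -7.13 to 1.19 (median -1.0) and from -6.82 to -1.38 (median -4.36), with 7 of 8 and 5 of 8 arrays well above background. The same wild-type stroma arrays 65 and 82 reached the tumor range, and the other 14 stroma arrays lay below all 16 tumor arrays. The difference was -3.62 ± 0.55 (SE), 12.3-fold (limma, adjusted p = 3.09e-06).

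Hbegf, a ligand that also binds heparan sulfate, was well above background on all 32 arrays. It ran from 1.96 to 3.98 (median 2.22) in wild-type tumor, from 1.84 to 3.03 (median 2.30) in knockout tumor, from 0.96 to 2.79 (median 2.01) in wild-type stroma and from -0.25 to 1.30 (median 0.43) in knockout stroma. The wild-type stroma overlapped the tumors and the knockout stroma did not. Stroma lay 2.49-fold lower (-1.32 ± 0.20 SE, limma, adjusted p = 3.66e-06).

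Egf, the founding ligand of the family, ran the other way. Its level was -3.43 to 3.42 (median 0.60) in wild-type stroma and 1.29 to 3.94 (median 3.08) in knockout stroma, against -3.94 to -1.23 (median -2.59) and -4.05 to -1.22 (median -2.57) in tumor. Only wild-type stroma 65 and 82, at -2.52 and -3.43, fell within the tumor range. The difference of 4.32 ± 0.50 (SE) was 20.0-fold (limma, adjusted p = 1.03e-07).

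Egfr, the receptor of all 7 ligands, was well above background on all 32 arrays. It ran from -1.14 to 3.40 (median 1.57) in wild-type stroma and from 1.83 to 3.84 (median 2.51) in knockout stroma, against -3.31 to 1.66 (median -2.63) in wild-type tumor and -4.00 to 0.71 (median -1.40) in knockout tumor. Knockout stroma lay above all tumors, while wild-type stroma 82, the lowest of its group at -1.14, lay below 5 tumor arrays and wild-type tumor 9 (1.66) lay above 4 of the 8 arrays. Stroma was 12.9-fold higher (3.69 ± 0.44 SE, limma, adjusted p = 1.34e-07). The other 2 Egfr probes differed by 3.88 and 3.69 and each followed the first over 32 arrays (r = 0.96), though they were well above background on 22 and 21 arrays only.

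Errfi1 was bright in every group: 3.89 to 5.59 (median 5.13) in wild-type stroma, 4.65 to 5.28 (median 4.92) in knockout stroma, 5.25 to 6.59 (median 5.74) in wild-type tumor and 5.2 to 5.84 (median 5.51) in knockout tumor. The groups overlapped, and stroma lay 1.59-fold lower (-0.67 ± 0.13 SE, limma, adjusted p = 9.72e-05). Its range over 32 arrays was 6.49-fold, against 254-fold for Egf and 230-fold for Egfr.

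The remaining ligands were at or near background. Tgfa was well above background on 0 of 32 arrays (-7.54 to -4.78) and Epgn on 1, so neither was tested. That array was wild-type tumor 5, where Epgn stood at -2.56 against at most -6.01 on the other 31. Wild-type tumor 5 also had the highest means of 12 keratinocyte (-2.33) and 6 simple epithelium markers (-1.02) among the tumors. The other 15 ran from -4.88 to -4.07 and from -5.45 to -3.21. Of all arrays it had the most outlier spots (483) and the most probes well above background (75.2%, against at most 62.5% elsewhere). The highest Tgfa level, -4.78, was on it too. The part of these in the Epgn value was not tested. Btc was well above background on 11 arrays, and its difference between stroma and tumor did not pass (-0.65 ± 0.42 SE, limma, adjusted p = 0.181). Its highest level, -1.51, was on wild-type tumor 9, and its second probe was well above background on 1 array.

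The 6 differences that passed had the same sign on each of 6 slides. In 15 pairs of stroma and tumor arrays with the same number in the labels, Ereg and Areg were lower in stroma in 15 of 15, Hbegf and Errfi1 in 13, Egfr was higher in 15 and Egf in 14. Without wild-type stroma 65 and 82 the differences were -4.99 for Ereg, -4.33 for Areg, -1.48 for Hbegf, 4.98 for Egf, 4.04 for Egfr and -0.75 for Errfi1, and all 6 passed.

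Markers of several other cell types moved with the tissue. All 12 skeletal muscle markers (median difference 6.66), 9 of 10 adipocyte markers (4.86), 9 of 9 endothelial markers (1.42), 7 of 7 mast cell markers (1.91) and 9 of 12 macrophage markers (1.56) rose in stroma, against a median of -0.14 over all genes. Other lists were mixed or moved little. Of 12 fibroblast markers 7 rose and 2 fell (median 0.9). Of 7 neutrophil markers 0 rose and 1 fell (-0.2), and of 9 T cell markers 1 rose and 1 fell (0.06). Of 4 keratinocyte markers tested 2 rose, and of 4 simple epithelium markers 1 rose and 1 fell. The part of all these markers in the Egf and Egfr differences between the tissues was not tested. Within stroma, Egf followed the mean of the muscle markers (n = 16, r = 0.93, p = 1e-05, the smallest the permutations could give, adjusted p = 0.0006 over 120 relations of 6 genes with 10 marker lists in 2 tissues; rho = 0.88, p = 4e-05). Without the 2 arrays farthest from the median marker level r was 0.75, and within genotypes it was 0.95 in wild type and 0.72 in knockout. With the adipocyte and endothelial means Egf passed by r (0.74 and 0.64) but not by rho. By the correlation search described below, the genes most like Egf in stroma were Scn4a, Myorg and Ryr1 (r = 0.98 each), of which Scn4a and Ryr1 encode the sodium channel and the calcium release channel of skeletal muscle.

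Within tumor, Egfr followed the mean of 12 fibroblast markers (n = 16, r = 0.91, permutation p = 1e-05, adjusted p = 0.0006; rho = 0.86, p = 8e-05), with r = 0.85 without the 2 farthest arrays, 0.93 in wild type and 0.89 in knockout hosts. Egfr also went with the adipocyte (r = 0.84), macrophage (0.69) and skeletal muscle means there (0.68), which passed by both r and rho (n = 16, permutation, adjusted p of r 0.0016 to 0.0268), so the relation was not with fibroblast markers alone. The fibroblast mean ran from 2.70 to 4.78 in tumor and was highest on wild-type tumor 9, the array with the highest Egfr. Within stroma, Egfr went with the macrophage mean (n = 16, r = 0.74, permutation p = 0.00082, adjusted p = 0.0103; rho = 0.82, p = 0.00018; r = 0.77 without the 2 farthest). It went as closely with the endothelial mean (r = 0.77, rho = 0.70) and passed also with the mast cell mean (r = 0.62, rho = 0.79), and with the adipocyte mean by r only (r = 0.75, rho = 0.64). Within knockout stroma these were 0.85 for macrophage, -0.31 for endothelial, 0.41 for mast cell and 0.50 for adipocyte markers. Its correlation with the muscle mean there (n = 16, r = 0.70, permutation p = 0.0064, adjusted p = 0.0366; rho = 0.28, p = 0.298) was -0.02 without wild-type stroma 65 and 82, the 2 farthest arrays, and so rested on them.

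**Figure D2:**
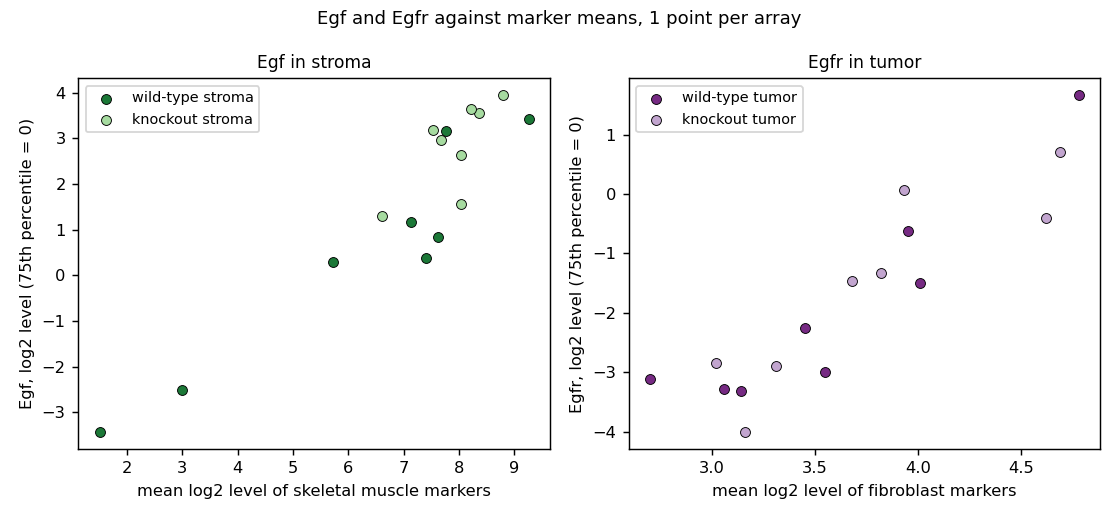
Left, Egf level against the mean log2 level of 12 skeletal muscle markers on 16 stroma arrays (r = 0.93); right, Egfr level against the mean of 12 fibroblast markers on 16 tumor arrays (r = 0.91). Each point is 1 array, coloured by host genotype, and wild-type stroma 65 and 82 are the 2 points at the lower left of the first panel.

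The comparison of the hosts asks whether these genes differ where the host lacks EP2. In stroma, all 8 knockout arrays lay below the wild-type median for Ereg, Areg and Hbegf and above it for Egf and Egfr. All 8 also lay above it for Ptger2 and for Ptger4 (limma, unadjusted p = 0.239) and below it for Ptgs2. The share of all genes with this pattern was not counted, so the pattern cannot be read as particular to these members. None of the 6 genes tested passed. Nor did any of 24782 genes (0% called by limma), although 28.2% of them and 4 of the 6 members, Areg, Hbegf, Egf and Egfr, had an unadjusted p under 0.05. In tumor none of 6 passed (0% called of 23749 genes), and none of the 6 had an unadjusted p under 0.05, with 3.33% of all genes below it.

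**Figure D3:**
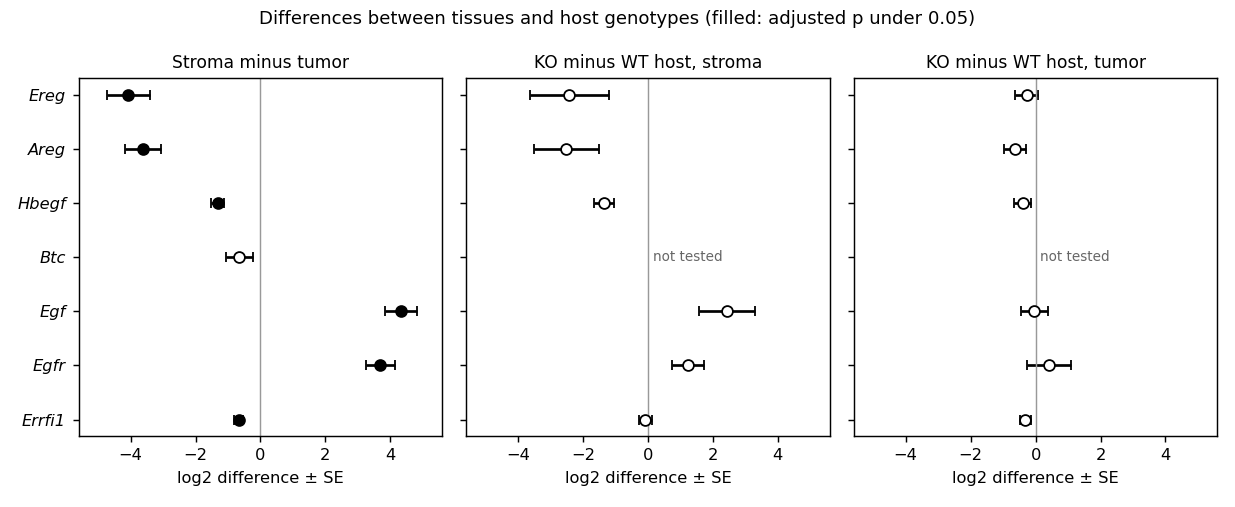
Log2 differences (horizontal axes, points) with standard errors (bars) for the 7 genes tested, between stroma and tumor, and between knockout and wild-type hosts in stroma and in tumor. Filled points passed at an adjusted p under 0.05: 6 between the tissues and none between the hosts.

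Hbegf had the smallest p in stroma. The arrays of knockout hosts ran from -0.25 to 1.30 and those of wild-type hosts from 0.96 to 2.79, so that 2 knockout arrays, 12 and 81, reached the wild-type range. The difference was -1.36 ± 0.30 (SE), 2.57-fold lower in knockout stroma (limma, adjusted p = 0.12). On 5 slides that held both genotypes it was lower in the knockout on 4, from -2.30 to 0.09.

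Areg differed by -2.52 ± 1.0 (SE) in stroma (5.75-fold, limma, adjusted p = 0.138) and Ereg by -2.42 ± 1.21 (5.34-fold, limma, adjusted p = 0.195). Both were lower in the knockout on 4 of 5 slides. The exception was slide 4, where wild-type stroma 9 was set against knockout stroma 12 and the differences were 5.75 and 6.37. Wild-type stroma 9 had the lowest Ereg and Areg of all 32 arrays, -6.98 and -7.13, both not well above background, and wild-type stroma 65 the highest of the stroma, 2.60 and 1.19.

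Egf lay 2.44 ± 0.86 (SE) higher in knockout stroma (5.41-fold, limma, adjusted p = 0.123) and Egfr 1.23 ± 0.50 higher (2.35-fold, adjusted p = 0.144). Egfr was higher in the knockout on 5 of 5 slides (0.55 to 2.0) and Egf on 3 of 5 (-2.13 to 5.71). Errfi1 differed by -0.08 ± 0.21 (limma, adjusted p = 0.798); it lay lower in the knockout on 5 of 5 slides (-0.66 to -0.03), but the difference was 0.01 without wild-type stroma 65. Knockout stroma had a muscle marker mean of 7.91 ± 0.65 (SD, n = 8) against 6.18 ± 2.64 (n = 8) in wild type, with ranges of 6.61 to 8.79 and 1.51 to 9.26. All 12 muscle (median 1.74), all 10 adipocyte (2.08) and all 12 macrophage markers (0.83) lay higher in knockout stroma. So did all 7 mast cell (0.76), all 9 endothelial (0.66) and all 9 T cell markers tested (0.49). Of 12 fibroblast markers 9 lay higher (0.55), of 7 neutrophil markers 3 (-0.05), of 4 keratinocyte markers 3 and of 3 simple epithelium markers 2. None of these markers passed the threshold, and their part in the differences of the 5 genes was not tested.

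These stroma differences turned on a few wild-type arrays. Without wild-type stroma 65 and 82 they were -0.56 for Ereg, -1.1 for Areg, -1.03 for Hbegf, 1.12 for Egf and 0.53 for Egfr, and none passed (adjusted p 0.643 to 0.873). Without wild-type stroma 9 alone they were -3.30, -3.33, -1.45, 3.06 and 1.32, and Ereg, Areg, Hbegf and Egf passed (limma, adjusted p 0.00704 to 0.0209), with 8325 genes called in all. Without wild-type stroma 4 alone Hbegf (-1.49), Egf (2.69) and Egfr (1.6) passed, with 5116 genes called. Without all 3 of wild-type stroma 9, 65 and 82 the differences were -1.36, -2.12, -0.96, 1.69 and 0.12, and none passed. Without the stroma arrays that went against their sex label Areg, Hbegf and Egf passed at -3.33, -1.44 and 2.96, with 5508 genes called.

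In tumor the differences between hosts were small beside the spread: -0.28 ± 0.35 (SE) for Ereg, -0.63 ± 0.33 for Areg, -0.40 ± 0.25 for Hbegf, -0.04 ± 0.42 for Egf, 0.41 ± 0.68 for Egfr and -0.32 ± 0.17 for Errfi1 (limma, adjusted p 0.977 to 0.993). Only 3 slides held tumors of both genotypes. On these Areg was lower in the knockout on 3 and Egfr higher on 3, Ereg and Hbegf higher on 2, and Egf and Errfi1 lower on 2. For Areg, Hbegf and Errfi1 the 3 highest tumor arrays were wild-type tumors labelled male. Wild-type tumors 9, 65 and 82 had Hbegf levels of 3.47, 3.98 and 3.77, against 1.84 to 3.03 on the other 13 tumor arrays. Their Areg levels were 2.01, 2.06 and 2.25 against at most 0.92, and their Errfi1 levels 6.09, 6.36 and 6.59 against at most 5.84. Their Ereg levels of 2.73, 3.56 and 4.33 overlapped the 2.94 of knockout tumor 15. These 3 arrays also had the highest means of 7 neutrophil markers, 3.24, 3.21 and 3.88 against -0.09 to 1.5 on the other tumor arrays. Before scaling they were the dimmest tumor arrays too. Their 75th percentile intensities were 402.2, 556.9 and 484.2, against 661.5 or more on the others. Wild-type tumors 9 and 65 were on slide 4 and 82 on slide 5, all scanned on day 2. Slide 4 also held wild-type tumor 5 and knockout tumor 12, and slide 5 wild-type tumor 1. The part of the neutrophil markers, of array brightness or of slide in these levels was not tested.

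Across the 16 tumors the neutrophil mean went with Hbegf (r = 0.85, permutation p = 0.00054, adjusted p = 0.00926), but by rank the relation did not pass (n = 16, rho = 0.42, permutation p = 0.11, adjusted p = 0.299). Without the 2 arrays with the farthest neutrophil means r was 0.71, and it was 0.94 within wild-type and 0.28 within knockout tumors. For Areg r was 0.96 in wild type and -0.04 in knockout, and for Errfi1 0.85 and 0.05.

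Whether the host difference itself differed between stroma and tumor was tested over all 32 arrays. None of 7 genes passed (limma; 0% called of 27120 genes), and Egf and Hbegf had an unadjusted p under 0.05, as had 21.1% of all genes. The difference in stroma minus that in tumor was -2.14 ± 1.31 (SE) for Ereg, -1.89 ± 1.1 for Areg, -0.96 ± 0.41 for Hbegf, 2.48 ± 1.0 for Egf, 0.82 ± 0.87 for Egfr, 0.24 ± 0.27 for Errfi1 and 1.09 ± 0.84 for Btc (adjusted p 0.168 to 0.605). Without wild-type stroma 65 and 82 it was -0.29 for Ereg, -0.47 for Areg and 1.16 for Egf. Without wild-type stroma 9 Ereg, Areg and Egf passed at -3.02, -2.70 and 3.11, with 5273 genes called.

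By group mean, Ereg, Areg and Hbegf stood in the order wild-type tumor (2.18, 0.95 and 2.70), knockout tumor (1.90, 0.32 and 2.30), wild-type stroma (-0.82, -1.73 and 1.86) and knockout stroma (-3.23, -4.25 and 0.50). Neighbours of 1 tissue in that order did not differ past the threshold. For Egf and Egfr the order began with knockout stroma (2.85 and 2.58) and wild-type stroma (0.41 and 1.35), and the tumor groups lay at -2.71 to -2.67 and at -1.93 to -1.52.

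The ligands that were high in tumor varied together from array to array, and with Ptgs2, which encodes the inducible cyclooxygenase that makes the precursor of prostaglandin E2. Ereg and Areg correlated within stroma (n = 16, r = 0.96, permutation p = 1e-05, adjusted p = 0.000105 over 42 relations; rho = 0.91, p = 1e-05) and within tumor (r = 0.83, permutation p = 0.0001, adjusted p = 0.0007; rho = 0.77, p = 0.00068). Without the 2 arrays farthest from the Ereg median r was 0.92 and 0.65. Within stroma r was 0.98 in wild-type and 0.88 in knockout hosts, and within tumor 0.92 and 0.52.

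Ereg followed Ptgs2 in stroma (n = 16, r = 0.96, permutation p = 1e-05; rho = 0.95, p = 1e-05; r = 0.97 without the 2 farthest) and in tumor (r = 0.97, permutation p = 1e-05; rho = 0.92, p = 1e-05; r = 0.94 without the 2 farthest). In stroma this was not particular to Ptgs2, which was not among the 3 genes most like Ereg there in the correlation search described below. Areg correlated with Ptgs2 at r = 0.96 in stroma (0.93 without the 2 farthest) and 0.81 in tumor, where r was 0.62 without the 2 farthest arrays, 0.93 in wild-type and 0.51 in knockout hosts. Ptgs2 itself was lower in stroma than in tumor (-3.48 ± 0.56 SE, limma, adjusted p = 6.53e-06), and its range from -5.14 to 5.15 had the same lowest and highest array as Ereg, wild-type stroma 9 and wild-type tumor 82. Ptger4, which encodes EP4, the other receptor for prostaglandin E2 that raises cAMP, did not differ between the tissues (0.15 ± 0.21 SE, limma, adjusted p = 0.546) and lay from 0.16 to 2.37 on all arrays.

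**Figure D4:**
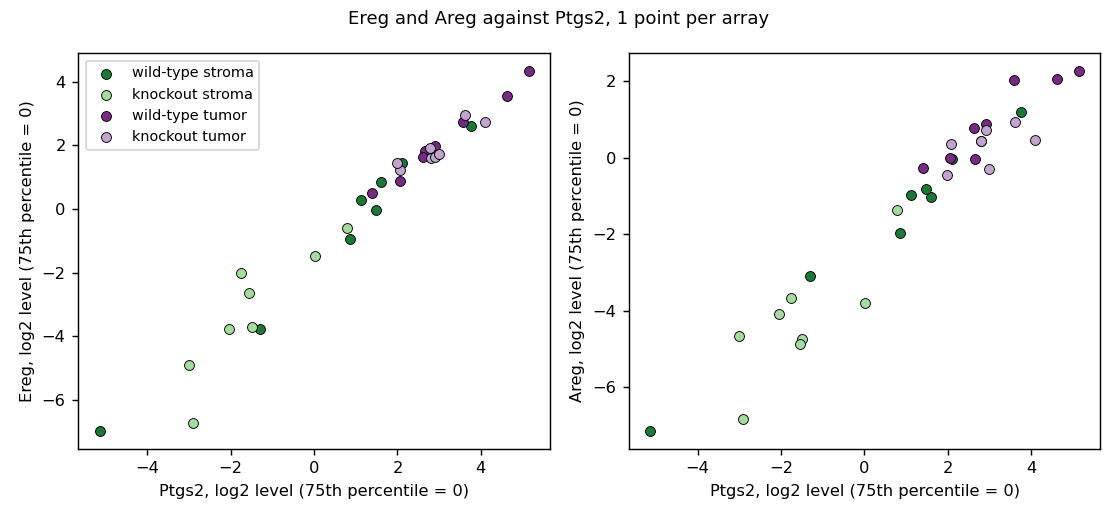
Log2 levels of Ereg (left) and Areg (right) against Ptgs2, 1 point per array, coloured by group, with the array 75th percentile at 0 on both axes. The points form a single band from wild-type stroma 9 at the lower left to wild-type tumor 82 at the upper right, and the stroma and tumor arrays meet along it.

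Hbegf joined this group more loosely. In tumor it correlated with Ereg (n = 16, r = 0.85, permutation p = 8e-05, adjusted p = 0.000672; rho = 0.70, p = 0.00299; r = 0.67 without the 2 farthest), at 0.91 in wild-type and 0.55 in knockout hosts. In stroma r with Ereg was 0.60 (n = 16, permutation p = 0.0137, adjusted p = 0.0262; rho = 0.61, p = 0.0144), and within knockout stroma it was 0.08. Egf ran against Ereg in stroma (n = 16, r = -0.73, permutation p = 0.00103, adjusted p = 0.00333; rho = -0.69, p = 0.00435; r = -0.73 without the 2 farthest), at -0.66 in wild-type and -0.67 in knockout hosts. In tumor no such relation passed (n = 16, r = -0.18, permutation p = 0.513). Areg, like Ereg, ran against the muscle marker mean in stroma (n = 16, r = -0.76, permutation p = 0.00024, adjusted p = 0.0072; rho = -0.83, p = 0.00021), at -0.72 in wild type and -0.74 in knockout. For Ereg this r was -0.70 (n = 16, permutation p = 0.00148, adjusted p = 0.0137), and by rank it did not pass (n = 16, rho = -0.67, permutation p = 0.00632, adjusted p = 0.0506). Both also ran against the endothelial mean in stroma (r = -0.66 each), but at -0.04 for Ereg and -0.15 for Areg within knockout stroma.

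The r of Errfi1 with Hbegf in tumor was 0.84 (n = 16, permutation p = 0.00028, adjusted p = 0.00107; rho = 0.61, p = 0.0132; r = 0.61 without the 2 farthest), at 0.90 in wild-type and 0.44 in knockout tumors. With Ereg r was 0.65 in tumor (n = 16, permutation p = 0.00719, adjusted p = 0.0159; rho = 0.24, p = 0.367), but 0.10 without the 2 arrays of farthest Ereg level, and so rested on them. In stroma no relation of Errfi1 with Ereg passed (n = 16, r = 0.21, permutation p = 0.447), though r had opposite signs within genotypes, 0.43 in wild-type and -0.81 in knockout stroma.

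The correlation search compared each of the broadly detected members with 14508 genes, within a tissue after removing genotype means, and over all 32 arrays, where the tissue difference enters. Over all arrays Ereg was most like Ptgs2 (r = 0.98), Areg and Dnmt3l (0.97 each), and within tumor like Socs3 (0.98), Ptgs2 (0.97) and Pla2g4a (0.94), the last 2 being the cyclooxygenase and the phospholipase that feeds it. Within stroma Ereg was most like Dnmt3l and Twist2 (0.97 each) and Anln (0.96), and Areg like Twist2, Tmem97 and Chaf1a (0.98 each). Within tumor Areg was most like Tnfrsf9 (0.91), and Hbegf like Hdc and Csrnp1 (0.93 each) and Osm (0.92). Egfr in tumor was most like Ndn and Dclk1 (0.98 each) and Bicc1 (0.97), and in stroma like Serping1, Apba1 and Mfsd6 (0.98 each). Errfi1 in tumor was most like Phlda1 (0.94), Fem1c (0.92) and Sat1 (0.88). Such correlations over 16 arrays are a description, and many genes share them.

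The rest of the pathway was read from lists of known genes. Of 18 ERK target and feedback genes 17 were tested between the tissues: 15 fell in stroma and 1 rose, where 37.1% of all genes fell and 25.7% rose, and the median difference was -1.29, against -0.14 over all genes. Phlda1 (-2.20 ± 0.24 SE), the ETS factors Etv1 (-1.90 ± 0.21) and Etv4 (-2.45 ± 0.29) and the inhibitor Spry2 (-0.92 ± 0.11) had the smallest p (limma, adjusted p 5.39e-08 to 1.29e-07). Spry1, another Sprouty inhibitor, was the gene that rose (0.43 ± 0.15, adjusted p = 0.018), and Egr1, an immediate early factor, did not pass (-0.35 ± 0.24, adjusted p = 0.22). The counts were 15 and 1 also without wild-type stroma 65 and 82 and under the 3 other scalings. Spry4 was too dim to test.

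In knockout stroma 15 of 16 tested genes of that list lay lower than in wild type (median -0.54, against 0.08 over all genes), but none passed. Over all genes 54.5% lay higher in knockout stroma. Etv4 had the smallest p (-2.34 ± 0.51 SE, limma, adjusted p = 0.12), with means of -0.74 ± 0.98 (SD, n = 8) and 1.59 ± 1.06 (n = 8), and Myc followed (-1.74 ± 0.55 SE, adjusted p = 0.12). Without wild-type stroma 65 and 82 the list's median was -0.25 with 14 of 16 lower. Without wild-type stroma 9 the median was -0.77 and 9 genes of the list passed, with 8325 called over all genes. Without wild-type stroma 4 the median was -0.56 and 4 passed, with 5116 called over all genes. In tumor 8 of 17 lay higher in knockout hosts (median -0.04), as did 50.7% of all genes. Dusp5, an ERK phosphatase, had the smallest p there (-0.79 ± 0.33 SE, limma, adjusted p = 0.977). For genotype by tissue none of 17 passed either, with Etv4 at -2.47 ± 0.58 and Myc at -1.65 ± 0.59 (limma, adjusted p = 0.117 and 0.136).

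**Figure D5:**
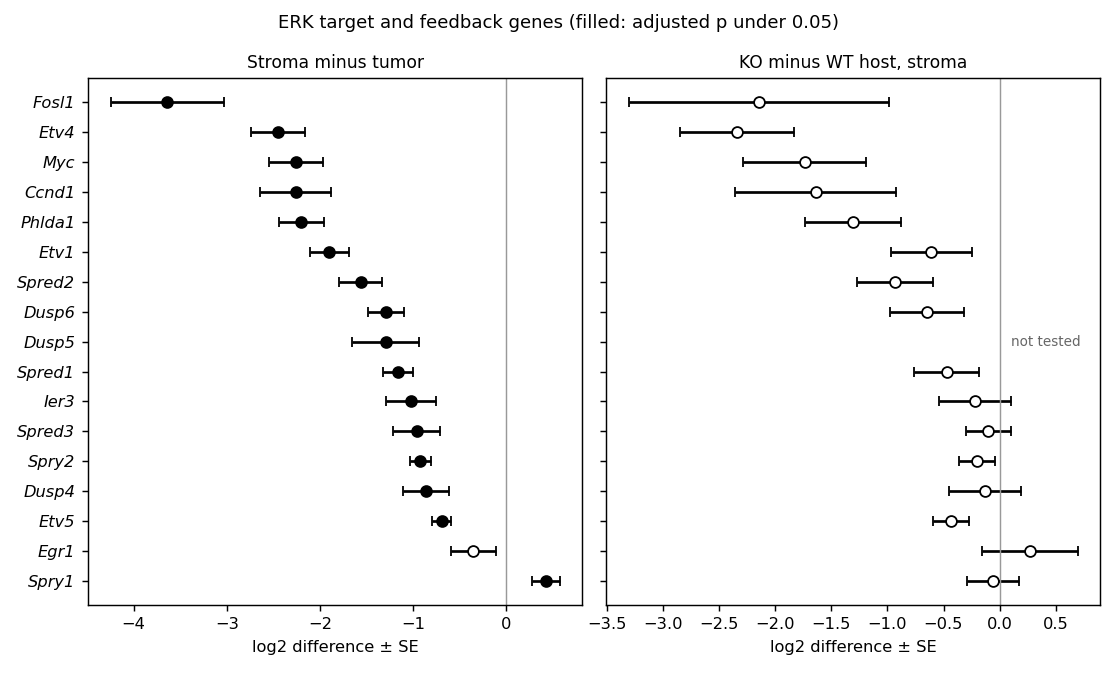
Log2 differences with standard errors for 17 ERK target and feedback genes, stroma minus tumor (left) and knockout minus wild-type hosts in stroma (right); filled points passed at an adjusted p under 0.05. On the left 15 filled points lie below 0 and Spry1 above it, and on the right no point is filled.

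Among the other negative regulators 6 of 12 fell in stroma and 2 rose, a share near the 62.8% called over all genes. Lrig1, which promotes breakdown of the receptor, was lower by -1.65 ± 0.20 (SE, limma, adjusted p = 1.66e-07), and Sh3kbp1 (-1.08 ± 0.19), Rnf41 (-1.03 ± 0.18) and Socs5 (-0.64 ± 0.14) were lower too. Between the hosts in stroma Cblc (1.46 ± 0.37) and Lrig1 (-1.38 ± 0.36) had the smallest p and did not pass (limma, adjusted p = 0.12 each).

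Of the 9 ligand-processing genes tested, 4 fell and 2 rose in stroma, again near the 62.8% of all genes. Adam17, the main sheddase of Areg, Ereg and Hbegf, was lower by -1.07 ± 0.16 (SE, limma, adjusted p = 2.02e-06), Adam10, which cuts Egf and Btc, by -0.77 ± 0.13, and the iRhom Rhbdf1 by -0.83 ± 0.13. Rhbdf2, the other iRhom that carries ADAM17 to the surface, was higher (2.57 ± 0.36, adjusted p = 1.26e-06). In knockout stroma Rhbdf1 lay at -0.68 ± 0.20 and Rhbdf2 at 1.16 ± 0.54, neither past the threshold (limma, adjusted p = 0.12 and 0.176).

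Of the other ErbB receptors and neuregulins 4 of 7 were tested, of which 1 fell and 2 rose in stroma. Over all genes 37.1% fell and 25.7% rose, and 4 genes are too few to set against these shares. Erbb2, the partner receptor without a ligand, fell in stroma (-1.18 ± 0.16 SE, limma, adjusted p = 4.97e-07), and the ErbB4 ligand Nrg4 (4.34 ± 0.57) and Nrg2 (1.59 ± 0.39) rose. Both sizes involve dim values. Between the hosts Nrg4 met the filter in stroma but not in tumor, and Nrg2 met it in neither. Nrg2 had means of -5.24 and -4.03 in wild-type and knockout stroma and -6.04 and -6.41 in tumor, and Nrg4 -5.19 and -6.56 in tumor. The lowest level well above background lay between -5.72 and -3.77, depending on the array. Erbb3 and Erbb4 were too dim to test. In the adaptor and Ras-ERK list 7 of 17 genes fell and 5 rose, with a median of 0.07, where 37.1% and 25.7% of all genes did. The smallest p values there belonged to Nras (-0.78 ± 0.13), Mapk3, which encodes ERK1 (-0.68 ± 0.12), Shc1 (-0.92 ± 0.16) and Braf (-0.47 ± 0.10), and between the hosts no gene of these lists passed in stroma or in tumor.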

How the data were processed

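Each of 32 RNA samples was hybridised to a single-colour array. Feature Extraction 10.7.3.1 is the version listed in the submitters' processing notes. Per the file headers the deposited processed signals are linear intensities. The authors' series matrix holds log2 values centred per probe within a tissue; 99.5% of stroma and 91.3% of tumor values lay within 0.01 of those computed here. Its column medians ran from -0.315 to 0.563, and it was used as an alternative only.

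Outlier spots were left out, spots of a probe averaged, and log2 values set against the 75th percentile of each array. Of 56605 probes 32994 had a RefSeq name. A gene was tested where Feature Extraction flagged its probe well above background on 8 or more arrays of a fit. At most 2 values could be missing. The fits used limma 3.58.1 in R 4.3.3, with 1 mean per genotype and sex label (and tissue), after a test on simulated data. Permutation tests were two-sided with 100000 resamples. The members and lists were chosen with earlier results of these data known. Named genes were the members, up to 4 genes per list with the smallest p (2 where none passed), Ptger2, Ptger4, Ptgs2 and the 3 genes most correlated with a member; a few others were chosen after their values were seen, among them Spry1, Egr1, Spry4, Erbb3 and Erbb4. The number of arrays limits the precision.

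Alternatives were other scalings, normexp correction (offset 50, on the median signal, chosen after seeing the data), other filters and probe rules, array weights, a trended robust variance, slide, sex and replicate terms, and leaving out arrays. Leaving out wild-type stroma 9, 65 and 82 together was chosen after seeing the data.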

Additional observations from a re-analysis of the deposited data

Results flagged for a closer look

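Within each group of 8 arrays, the gap between an end value and its neighbour was compared with the whole range. In 172 groups (43 genes) 13 values stood apart, 7.56% where chance gives about 1 in 20.

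Among the members 5 values stood apart. Hbegf was 3.03 on knockout tumor 81 (next 2.40), Btc -2.33 on knockout tumor 12 (next -4.69), Epgn -2.56 on wild-type tumor 5 (next -6.01), Egfr 3.84 on knockout stroma 15 (next 2.71) and Errfi1 3.89 on wild-type stroma 4 (next 4.89). Wild-type stroma 4 also had the highest Egfr of its group, 3.40.

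Among the pathway genes Cblc was -0.42, Nrg2 -2.63 and Nras 3.49 on wild-type tumor 5. Adam8 was -1.62 on wild-type stroma 9, Nrg2 -3.67 on wild-type stroma 4, Braf 1.37 on wild-type tumor 45, Nrg4 -4.20 on knockout tumor 81 and Rhbdf1 2.99 on knockout stroma 12.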

How the results depend on the processing

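Between stroma and tumor the 6 members that passed kept their direction and passed under every alternative in which they were tested, and with each of the 32 arrays left out in turn (6 to 6 called). With only genes above background on all arrays, 3 members were tested and 3 passed. Between the hosts in stroma, where 0 passed, 5 passed with array weights (16147 genes called), 3 with all 32 arrays in 1 fit (4336 genes) and 3 without arrays against their sex label (5508 genes); leaving out 1 array gave 0 to 4, with 3 without wild-type stroma 4 and 4 without wild-type stroma 9. For genotype by tissue, where 0 passed, 4 passed with array weights (13199 genes called), and leaving out 1 array gave 0 to 3, with 3 without wild-type stroma 9 (5273 genes). Over all genes, 2130 passed for genotype by tissue without arrays against their sex label and 11 without wild-type stroma 9, 65 and 82, where 1 passed between the hosts in stroma, and 10980 in place of 17037 passed between the tissues among genes above background on all arrays. In tumor 0 passed under every alternative run. Why these settings differ was not tested.

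Some small differences changed sign. In stroma Errfi1 was 0.08 without wild-type stroma 65 and 82, 0.38 without 9, 65 and 82, and -0.24 to 0.01 with 1 array left out. In tumor Egf was 0.13 with normexp and quantile scaling, 0.28 with quantile scaling, 0.02 without knockout tumor 51 and 81, 0.23 without arrays against their sex label, and -0.22 to 0.21 with 1 array left out. Without arrays against their sex label Ereg was 0.03 in tumor. For genotype by tissue Errfi1 was -0.22 with slide as a fixed block and Egfr -0.29 without wild-type stroma 9, 65 and 82. The cause was not tested.

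Scaling to bright probes moved the median difference of all genes between stroma and tumor from -0.14 to -0.02 and for genotype by tissue from 0.09 to 0.25. Same-numbered stroma and tumor arrays (15 pairs) deviated together with a correlation of -0.123 to 0.355 (median 0.105, 8 of 15 over 0.1), and 4 correlated best with their own number. A random replicate block had a consensus correlation of 0.107. The main fit did not use the numbers as pairs, and fits with a replicate block were run as alternatives. With the replicate block 6 members passed between the tissues when it was random and 7 when it was fixed, which added Btc (-0.89, adjusted p = 0.0298 by limma), and for genotype by tissue 0 passed with either.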
